A study of Mus musculus with 18 samples.

Results

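Primitive endoderm is the extraembryonic lineage that separates from the pluripotent epiblast in the mouse blastocyst. The genes examined here were Gata4, Gata6, Sox17, Sox7, Foxa2, Pdgfra, Dab2, Cubn and Amn, 9 of the 45706 genes in the count table, each taken by an exact match of its symbol. RNA was sequenced from mouse induced pluripotent stem cells (iPSCs) with intact Hmga2 (wt) and from a pair of Hmga2 knockout clones (KO#1 and KO#2). Hmga2 encodes an architectural chromatin protein that binds AT-rich DNA. Cells were taken at 0 h, when they grew with serum, leukaemia inhibitory factor and inhibitors of Mek and Gsk3 on inactivated fibroblast feeders, and at 24 h of conversion into epiblast-like cells (EpiLCs) on a basement membrane matrix with Activin A and bFGF. Each of the 6 groups held 3 independent biological replicates of 1 clone, so genotype and clone cannot be told apart, and the feeders differed between the time points together with the state of the cells.

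Specification of primitive endoderm depends on FGF signalling in inner cell mass cells. FGF4 made by the epiblast acts through FGF receptors and the adaptor Grb2 in favour of the transcription factor Gata6, which opposes Nanog. Gata4, Sox17 and Sox7 follow, and the receptor Pdgfra is an early surface marker. The endocytic proteins Dab2, Cubn and Amn serve nutrient uptake in the visceral endoderm that the lineage later forms, and Foxa2 marks part of that endoderm and the definitive endoderm of the gastrula. Pluripotent cultures can hold a few cells of this kind, and blocking Mek reduces them.

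The libraries held 3466436 to 23872837 counts. Values are given as CPM, counts divided by library size and by a TMM factor (a trimmed mean of log ratios between libraries), and 3 counts, the floor used for detection, came to 0.116 to 0.984 CPM. Intervals and floors cover counting error only. Hmga2 itself lay at 13.3 to 22.4 CPM in wt cells at 0 h against 1.75 to 10.2 CPM in KO#1 and 1.84 to 8.25 CPM in KO#2. At 24 h it lay at 5.51 to 5.93 CPM in wt cells, 0.871 to 3.67 CPM in KO#1 and 3.02 to 10.5 CPM in KO#2 (log2 fold change -0.04, adjusted p = 0.966 for KO#2 against wt cells), so the second clone is written below as the libraries labelled KO#2. At 0 h Hmga2 was called lower in KO#2 than in wt cells (-1.90, adjusted p = 0.023, edgeR). In KO#1 it was not called at 0 h (-1.71) or 24 h (-1.36), so this wording does not make KO#1 the better supported knockout. The paper also probed both clones for Hmga2 protein by western blot. The summed level of 5 pluripotency genes (Pou5f1, Sox2, Sall4, Lin28a and Nanog) at 0 h was 2263 to 2891 CPM in wt cells, 2058 to 2554 CPM in KO#1 and lower, 1376 to 1450 CPM, in the libraries labelled KO#2. The same sum at 24 h came to 1840 to 2420, 1606 to 2206 and 1430 to 1572 CPM. Pou5f1 alone then had means of 1412 CPM in wt cells and 832 CPM in the libraries labelled KO#2. Gene by gene, 2 of 5 were higher (Nanog and Sox2, the latter by 0.83, adjusted p = 0.0214, edgeR) and 1 lower in these libraries than in wt cells at 24 h, beside 21.3% and 16% of all tested genes. Pou5f1, the defining factor, was lower in the libraries labelled KO#2 than in wt cells at 0 h (log2 fold change -1.12, SE 0.25, adjusted p = 0.00284) and 24 h (-0.76, SE 0.25, adjusted p = 0.0225, a size under the 1.04 by which scaling with library sizes alone raised the median gene). Nanog, which opposes Gata6, was higher at 24 h both there (1.71, SE 0.47, adjusted p = 0.00926) and in KO#1 (1.82, SE 0.48, adjusted p = 0.0187). Its values in the libraries labelled KO#2 (from 24.6 CPM) overlapped those in wt cells (up to 27.5 CPM), and those in KO#1 did not. The part of these differences in the results on the members was not tested. In these bulk samples fewer cells of a type and less RNA per cell cannot be told apart.

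Of the 9 genes, 8 passed the filter on low counts and were tested among 16619 genes. The filter asked for at least 0.607 CPM, unscaled, in 3 libraries. Cubn and Sox17 reached it in 4 libraries, of which 3 were labelled KO#2 at 24 h, and Sox7 reached it in 2 of those 3 and in 2 wt libraries at 0 h. These genes were tested because of the groups in which they were high, and counts over the tested members are a description. Foxa2 did not pass. All members lay low beside the rest of the transcriptome. Per kilobase of exon, the highest mean levels were 1.03 CPM for Pdgfra and 1.01 CPM for Gata6, both in the libraries labelled KO#2 at 24 h, and 0.823 CPM for Amn in KO#1 at 24 h, above 35.0%, 34.7% and 34.9% of the tested genes in the same group. The summed level of the 9 genes was 2.00 to 2.64 CPM in wt cells at 24 h, 5.52 to 9.85 CPM in KO#1 and 16.8 to 32 CPM in the libraries labelled KO#2.

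**Figure D1:**
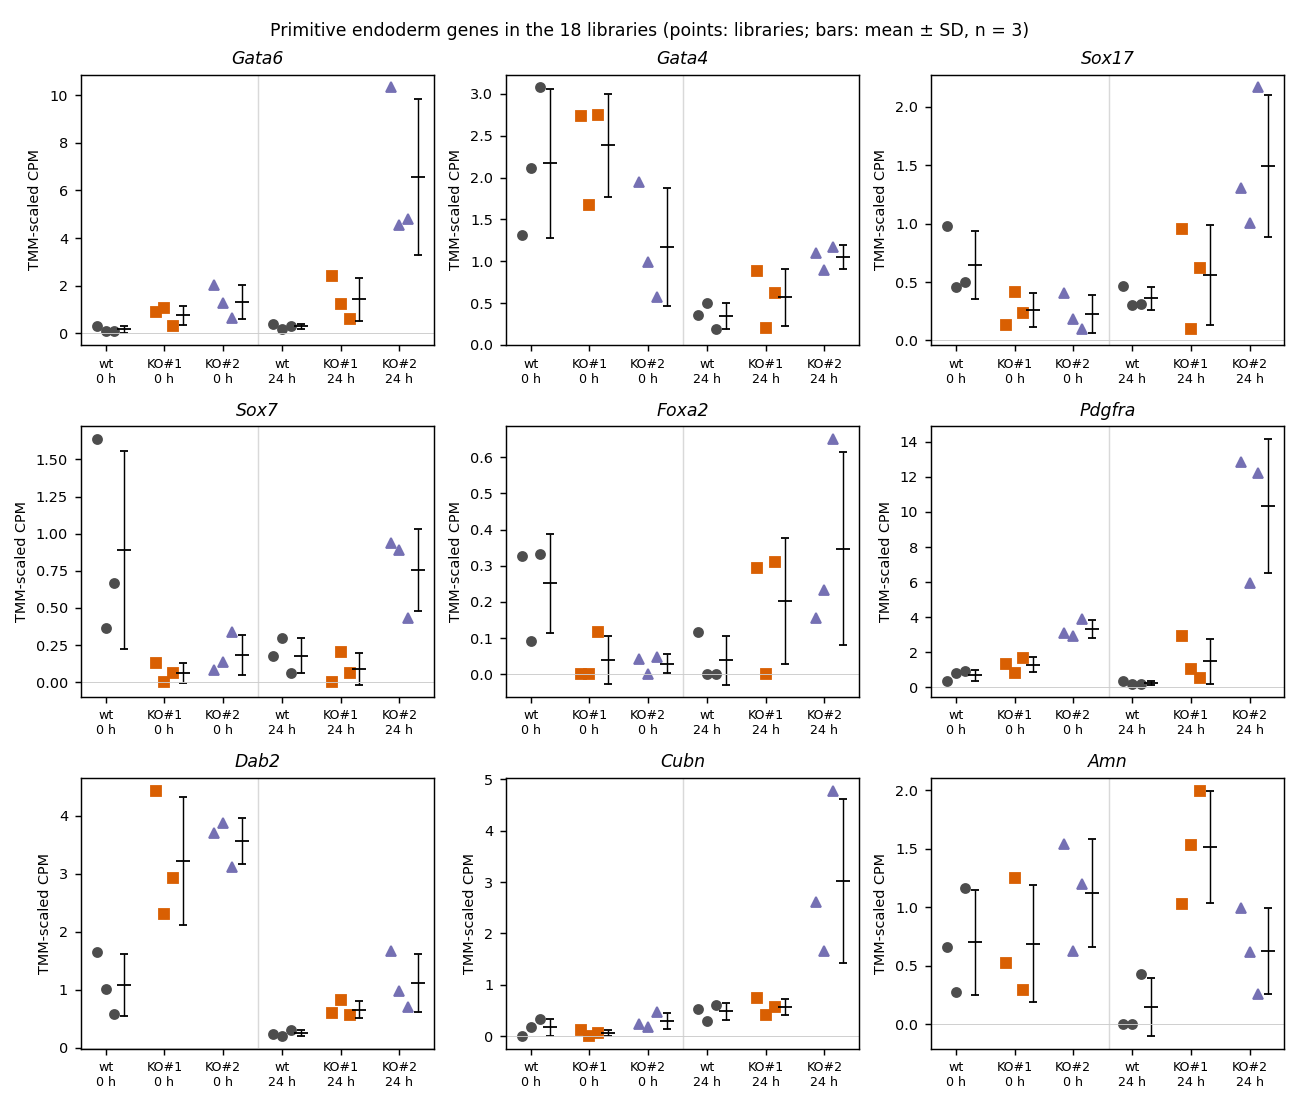
Level of each of the 9 genes in the 18 libraries, as TMM-scaled CPM on linear axes that differ between panels; points are libraries of wt cells (circles), KO#1 (squares) and the libraries labelled KO#2 (triangles), and bars are the mean ± SD of 3 libraries. Pdgfra, Gata6 and Cubn reach their highest values in the libraries labelled KO#2 at 24 h, Dab2 and Gata4 are lower at 24 h than at 0 h in wt cells and KO#1, and Amn is highest in KO#1 at 24 h.

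Gata6, the zinc finger factor that starts the primitive endoderm programme, was nearly undetected in wt cells and was highest in the libraries labelled KO#2. In wt cells at 0 h each library held 1 count of Gata6, which is below the floor. At 24 h the wt libraries held 7, 2 and 5 counts, or 0.411, 0.20 and 0.309 CPM. KO#1 lay at 0.912, 1.04 and 0.292 CPM at 0 h and at 2.43, 1.23 and 0.622 CPM at 24 h, with overlap between the time points. In the libraries labelled KO#2 Gata6 was 2.03, 1.26 and 0.623 CPM at 0 h and 10.3, 4.57 and 4.78 CPM at 24 h, and these groups did not overlap. The rise over 24 h in these libraries had a log2 fold change of 2.31 (SE 0.53, adjusted p = 0.00382). At 24 h they exceeded wt cells by 4.33 (SE 0.63, adjusted p = 7.83e-05) and KO#1 by 2.20 (SE 0.54, adjusted p = 0.00463). At 0 h they exceeded wt cells with 91 against 3 counts, a ratio of 11.6 with a counting interval of 3.85 to 57.4 (adjusted p = 0.00567). KO#1 exceeded wt cells at 24 h by 2.13 (SE 0.64, adjusted p = 0.0421). This call did not hold in 5 of the 6 fits that left out 1 library, and without KO#1 replicate 1 the difference was 1.51 (adjusted p = 0.219). Gata6 lies on chromosome 18 (11052064 to 11085635, plus strand, GRCm38) and shares exonic sequence with 1010001N08Rik on the opposite strand. Whether the counting used strand is not given in the sources used here, so its counts are uncertain to that extent. The same holds for Sox17, Pdgfra, Dab2, Cubn and Hmga2, which also overlap exons of opposite-strand genes.

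Gata4, the related factor that acts after Gata6, had another pattern: it was highest at 0 h and fell in wt cells and KO#1. The wt libraries held 1.31, 2.11 and 3.09 CPM at 0 h and 0.352, 0.501 and 0.185 CPM at 24 h. The log2 fold change in wt cells was -2.75 (SE 0.57, adjusted p = 0.000854). KO#1 went from 2.74, 1.67 and 2.74 CPM to 0.882, 0.204 and 0.622 CPM, a log2 fold change of -2.03 (SE 0.54, adjusted p = 0.0064). In both lines the time points did not overlap. Gata4 in the libraries labelled KO#2 was 1.95, 0.989 and 0.576 CPM at 0 h and 1.10, 0.890 and 1.17 CPM at 24 h, and their change was -0.16 (SE 0.48, adjusted p = 0.836). At 24 h all 3 of these libraries lay above all 3 wt libraries, by 1.64 on the log2 scale (SE 0.57, adjusted p = 0.0299), but the call was lost in 4 of the 6 fits without 1 library (1.34, adjusted p = 0.121, without wt replicate 3). The difference in 24 h response between these libraries and wt cells was 2.58 (SE 0.75, adjusted p = 0.0788) and did not pass. Gata4 lies on chromosome 14 (63198922 to 63271692, minus strand), less than a megabase from Sox7 (63943673 to 63950732, plus strand).

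Sox17 and Sox7, related SOX factors of primitive endoderm and of endothelium, were measured from few reads. Sox17 passed the filter through libraries labelled KO#2 at 24 h, and Sox7 through these and wt libraries at 0 h. Differences that involve these groups are thus a description. Sox17 held 3 to 6 counts per library in wt cells at 0 h, 3 to 8 at 24 h, 1 to 4 in KO#1 at 0 h and 1 to 13 in KO#1 at 24 h. Those labelled KO#2 went from 10, 4 and 2 counts (0.406, 0.180 and 0.0959 CPM) to 25, 26 and 50 counts (1.31, 1.01 and 2.17 CPM), with no overlap. Their rise was 2.65 on the log2 scale (SE 0.60, adjusted p = 0.00369), and their excess over wt cells at 24 h was 2.01 (SE 0.60, adjusted p = 0.0148). The excess over wt cells was not called without KO#2 replicate 3 (1.64, adjusted p = 0.0619) or without wt replicate 2 or 3. For Sox7 the wt libraries held 5, 4 and 8 counts at 0 h (1.64, 0.367 and 0.667 CPM) and 3, 3 and 1 at 24 h (0.176, 0.301 and 0.0618 CPM). Their change was -2.11 (SE 0.82, adjusted p = 0.0393). Sox7 rose in the libraries labelled KO#2, from 2, 3 and 7 counts (0.0813, 0.135 and 0.336 CPM) to 18, 23 and 10 counts (0.941, 0.890 and 0.434 CPM), by 2.01 (SE 0.68, adjusted p = 0.0369). KO#1 held 0 to 1 counts at 0 h and 0 to 2 at 24 h, at or under the floor at both times. The second clone exceeded wt cells at 24 h by 2.12 (SE 0.74, adjusted p = 0.0324) and its libraries lay below them at 0 h by a log2 fold change of -2.0 (SE 0.76, adjusted p = 0.0458). Each of these 4 Sox7 calls was lost in 4 of 6 fits without 1 library, with adjusted p between 0.0781 and 0.167. Against KO#1 at 24 h, 51 counts stood beside 3, a ratio of 9.87 with a counting interval of 3.19 to 49.4 (adjusted p = 0.00847).

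Foxa2, a forkhead factor of visceral and definitive endoderm, was at the limit of detection. It held 1, 1 and 4 counts in wt cells at 0 h and 2, 0 and 0 at 24 h. KO#1 held 0, 0 and 2 counts at 0 h and 4, 0 and 5 at 24 h. The libraries labelled KO#2 went from 1, 0 and 1 counts to 3, 6 and 15, a ratio of 11.9 with a counting interval of 2.97 to 104. It was too low for the filter, and in a fit of 29079 genes without a filter this rise had an adjusted p of 0.0209, the difference from wt cells at 24 h had 0.0598 and the difference in response had 0.0305. The related genes Foxa1 and Foxa3 were also low, at 0 to 8 and 0 to 22 counts per library.

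Pdgfra, the receptor for PDGF-A and an early surface marker of primitive endoderm that fibroblasts also carry, showed the largest difference among the members at 24 h. The wt libraries held 0.328, 0.826 and 0.917 CPM at 0 h and 0.352, 0.20 and 0.185 CPM at 24 h. KO#1 held 1.30, 0.835 and 1.69 CPM at 0 h and 2.94, 1.02 and 0.498 CPM at 24 h. Higher still were the libraries labelled KO#2, with 3.09, 2.92 and 3.88 CPM at 0 h and 12.9, 5.92 and 12.3 CPM at 24 h. Each of these libraries lay above every wt and KO#1 library of the same time point. At 24 h they exceeded wt cells by 5.31 on the log2 scale (SE 0.60, adjusted p = 7.71e-06) and KO#1 by 2.79 (SE 0.50, adjusted p = 0.000427). At 0 h they exceeded wt cells by 2.08 (SE 0.55, adjusted p = 0.00802), while the excess over KO#1 was 1.29 (SE 0.51, adjusted p = 0.0666). Over 24 h they rose by 1.65 (SE 0.46, adjusted p = 0.0132), a call that was lost without KO#2 0 h replicate 1 (1.60, adjusted p = 0.055) or KO#2 24 h replicate 3 (1.51, adjusted p = 0.0551). In wt cells the change was -1.59 (SE 0.68, adjusted p = 0.0595). In KO#1 it was 0.14 (SE 0.53, adjusted p = 0.85), and this value turned to -0.74 when library sizes alone were used for scaling. KO#1 exceeded wt cells at 24 h by 2.52 (SE 0.62, adjusted p = 0.0122), a call lost without KO#1 replicate 1 (1.54, adjusted p = 0.125) and without wt replicate 3 (2.38, adjusted p = 0.0517). In order of mean level the groups ran from the libraries labelled KO#2 at 24 h (10.3 ± 3.84 CPM, SD, n = 3) and 0 h (3.30 ± 0.514) through KO#1 at 24 h (1.49 ± 1.29) and 0 h (1.28 ± 0.429) to wt cells at 0 h (0.691 ± 0.317) and 24 h (0.246 ± 0.0922). Of the neighbours in this order compared by a test, only the 2 groups labelled KO#2 differed. The step from these libraries at 0 h to KO#1 at 24 h was not tested.

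Because Pdgfra, Gata6 and Cubn were all highest in the same libraries, the bases ahead of the start sites were read for words bound by GATA and SOX factors. RefSeq promoter entries (GRCm38.p6) matched 5 of the 9 genes, Foxa2, Pdgfra, Dab2, Cubn and Amn. The 250 bases before each start were searched on both strands for AGATAA or TGATAA, which differ only in their first letter, and for ACAATG. Of 32851 windows of this length in the table, 16.6% held a GATA word and 10.7% the SOX word. The Pdgfra window is shown as that of the member with the largest difference, and it held neither.
Pdgfra promoter, chr5:75152001-75152250, plus strand: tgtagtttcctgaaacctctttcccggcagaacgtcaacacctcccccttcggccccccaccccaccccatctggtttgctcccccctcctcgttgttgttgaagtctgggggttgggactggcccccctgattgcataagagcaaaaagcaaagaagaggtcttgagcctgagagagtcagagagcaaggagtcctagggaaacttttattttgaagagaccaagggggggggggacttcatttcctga

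**Figure D2:**
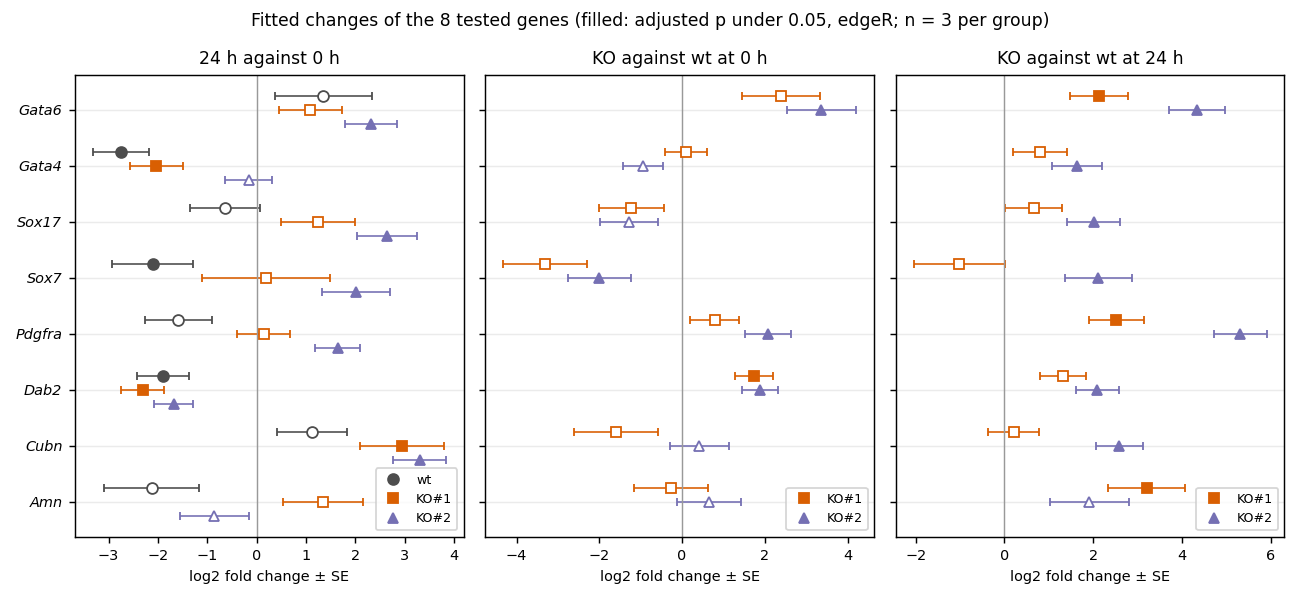
Fitted log2 fold change ± SE of the 8 tested genes, for 24 h against 0 h in each line (left) and for each clone against wt cells at 0 h (middle) and 24 h (right); filled symbols passed an adjusted p of 0.05 in edgeR. In the right panel 7 of 8 symbols for the libraries labelled KO#2 are filled and 3 of 8 for KO#1, all to the right of 0.

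The ligand genes of this receptor had other patterns. Pdgfa, whose product binds Pdgfra, fell from 200 ± 122 to 14.3 ± 2.68 CPM in wt cells (log2 fold change -3.80, SE 0.39, adjusted p = 1.41e-06). KO#1 fell from 104 ± 11.5 to 33.1 ± 7.36 CPM (-1.65, SE 0.36, adjusted p = 0.00174). Pdgfa started lower in the libraries labelled KO#2, at 55.5 ± 3.82 CPM, and was at 30.4 ± 12.6 CPM at 24 h (-0.87, SE 0.35, adjusted p = 0.0755). The response of Pdgfa differed between these libraries and wt cells by 2.93 (SE 0.50, adjusted p = 0.00883). Among Pdgfa, Pdgfb, Pdgfc, Pdgfd and the second receptor Pdgfrb, 3 of 5 were higher in the libraries labelled KO#2 than in wt cells at 24 h, where 21.3% of all tested genes were higher: Pdgfrb, a receptor of mesenchymal cells, by 2.82 (SE 0.55, adjusted p = 0.000766), Pdgfa by 1.08 (SE 0.36, adjusted p = 0.0233) and Pdgfc by 0.83 (SE 0.22, adjusted p = 0.00827). Unlike Pdgfra, Pdgfrb fell over 24 h in these libraries, by a log2 fold change of -1.48 (SE 0.45, adjusted p = 0.0206). Of the FGF input genes Fgf4, Fgfr1, Fgfr2 and Grb2, 0 of 4 were called between these libraries and wt cells at 24 h in either direction, beside 21.3% and 16%. At 0 h 3 of 4 were lower there, beside 16.6% of all tested genes, Grb2 by -0.96 (SE 0.33, adjusted p = 0.0287), Fgfr1 by -0.89 (SE 0.34, adjusted p = 0.0454) and Fgf4 by -0.68 (SE 0.26, adjusted p = 0.0494), differences to be read beside the 0.45 by which scaling with library sizes alone raised the median gene at 0 h. Fgfr2, the receptor that marks primitive endoderm, was lower in KO#1 than in wt cells at 24 h (-1.66, SE 0.42, adjusted p = 0.0152).

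Dab2, Cubn and Amn belong to the uptake machinery of endoderm: Cubn is a large receptor for vitamin B12 bound to intrinsic factor, Amn anchors it in the membrane, and Dab2 is the clathrin adaptor that brings such receptors into the cell. Their levels did not move together. Cubn was close to 0 at 0 h, with 0 to 4 counts per library in wt cells, 0 to 1 in KO#1 and 4 to 10 where the label was KO#2. The 24 h levels were 0.528, 0.301 and 0.618 CPM in wt cells, 0.735, 0.409 and 0.560 CPM in KO#1 and 2.61, 1.66 and 4.78 CPM in the libraries labelled KO#2. The last of these lay above all other groups, and wt cells and KO#1 overlapped at 24 h. Cubn rose in the libraries labelled KO#2 by 3.30 on the log2 scale (SE 0.53, adjusted p = 0.000259). It was tested only because it is high in these libraries, so this value is a description. In KO#1 23 counts at 24 h stood beside 2 at 0 h, a ratio of 8.62 with a counting interval of 2.13 to 75.5 (adjusted p = 0.0108), and this call was lost without KO#1 0 h replicate 3 (adjusted p = 0.0553). In wt cells the change was 1.13 (SE 0.71, adjusted p = 0.189). At 24 h the libraries labelled KO#2 exceeded wt cells by 2.59 (SE 0.53, adjusted p = 0.00109) and KO#1 by 2.37 (SE 0.52, adjusted p = 0.00218).

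Dab2 was the member that fell in every line. It went from 1.64, 1.01 and 0.584 CPM to 0.235, 0.20 and 0.309 CPM in wt cells, with no overlap (-1.90, SE 0.53, adjusted p = 0.00692), although it was too low for the filter in a fit of the wt libraries alone. KO#1 went from 4.43, 2.30 and 2.92 CPM to 0.588, 0.818 and 0.560 CPM (-2.31, SE 0.44, adjusted p = 0.000651). The libraries labelled KO#2 went from 3.70, 3.87 and 3.12 CPM to 1.67, 0.967 and 0.695 CPM (-1.68, SE 0.39, adjusted p = 0.00432). At 0 h both clones lay above wt cells without overlap, KO#1 by 1.74 (SE 0.45, adjusted p = 0.0248) and the libraries labelled KO#2 by 1.88 (SE 0.44, adjusted p = 0.00386). The KO#1 call was lost without KO#1 replicate 1 (1.46, adjusted p = 0.0923) and without wt replicate 2 or 3 (1.79, adjusted p = 0.0799, and 1.39, adjusted p = 0.166). At 24 h the libraries labelled KO#2 exceeded wt cells by 2.09 (SE 0.48, adjusted p = 0.00287), and KO#1 exceeded them by 1.33 (SE 0.52, adjusted p = 0.127). Amn had its highest level in KO#1. The wt libraries held 2, 3 and 14 counts at 0 h and 0, 0 and 7 at 24 h. KO#1 lay at 0.521, 1.25 and 0.292 CPM at 0 h and at 1.03, 1.53 and 1.99 CPM at 24 h, and exceeded wt cells at 24 h by 3.21 (SE 0.88, adjusted p = 0.0238). That call was lost in 4 of 6 fits without 1 library, with adjusted p between 0.0502 and 0.106, and without wt replicate 3 only wt libraries at 0 remained, which gives no fold. For the libraries labelled KO#2 Amn was 1.54, 0.630 and 1.2 CPM at 0 h and 0.993, 0.619 and 0.261 CPM at 24 h, and the difference from wt cells at 24 h was 1.92 (SE 0.89, adjusted p = 0.0991).

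The promoter window of Cubn is shown as that of the endocytic gene that rose, and that of Dab2 as a member window with a word. The windows of Cubn and Amn held neither word. Of the 2 windows of Dab2 the upstream one held TGATAA, in capitals, starting 179 bases before the start site. Of the 3 windows of Foxa2 1 held AGATAA, starting 183 bases before its start site. The words thus occurred in windows of members with different patterns.
Cubn promoter, chr2:13491877-13492126, minus strand: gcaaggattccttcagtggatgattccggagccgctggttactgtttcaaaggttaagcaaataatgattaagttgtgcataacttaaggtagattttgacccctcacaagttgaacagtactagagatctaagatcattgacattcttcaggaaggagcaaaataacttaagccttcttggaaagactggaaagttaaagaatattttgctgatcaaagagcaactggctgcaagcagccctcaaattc
Dab2 promoter, chr15:6299539-6299788, plus strand: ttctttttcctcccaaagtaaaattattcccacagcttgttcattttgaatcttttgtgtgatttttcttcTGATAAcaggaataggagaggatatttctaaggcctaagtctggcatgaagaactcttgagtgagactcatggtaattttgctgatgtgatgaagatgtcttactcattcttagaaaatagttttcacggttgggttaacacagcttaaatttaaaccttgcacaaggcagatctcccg

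Lrp2 (megalin), the large endocytic receptor that works with Cubn, rose in all 3 lines. It went from 9.84, 7.62 and 7.92 CPM to 135, 128 and 186 CPM in wt cells, a log2 fold change of 4.16 (SE 0.30, adjusted p = 5.44e-08). In KO#1 it went from 20.2, 14.0 and 24.0 CPM to 64.6, 95.1 and 126 CPM (2.28, SE 0.27, adjusted p = 1.26e-05). The libraries labelled KO#2 went from 36.3, 31.3 and 27.1 CPM to 340, 266 and 351 CPM (3.34, SE 0.28, adjusted p = 6.27e-07). Lrp2 exceeded wt cells in these libraries at 0 h by 1.92 (SE 0.28, adjusted p = 0.000128) and at 24 h by 1.10 (SE 0.26, adjusted p = 0.0035), and its response was smaller in KO#1 than in wt cells by a log2 difference of -1.88 (SE 0.38, adjusted p = 0.0374). Lrp2 thus rose where Cubn rose, and also in wt cells, where the change of Cubn did not pass.

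Of 9 genes of visceral endoderm (Hnf4a, Ttr, Afp, Apoa1, Apoa4, Apob, Lrp2, Rhox5 and Cited1) 6 were tested. Ttr, Apoa1 and Apoa4, secreted products of that tissue, held 0 to 2, 0 to 4 and 0 counts per library. At 0 h 5 of 6 were higher in the libraries labelled KO#2 than in wt cells and 0 lower (median log2 fold change 1.53, beside 0.10 over all tested genes, of which 21.5% were higher), with Apob higher by 4.89 (SE 0.76, adjusted p = 0.000194), and 2 of 6 were higher in KO#1, beside 3.99%. Over 24 h 4 of 6 rose and 1 fell in wt cells (median 2.36), beside 26% and 24.7%, 3 rose and 1 fell in KO#1 (median 1.29), beside 20.1% and 20.6%, and 2 rose and 1 fell where the label was KO#2 (median 0.25), beside 12.7% and 13.3%. At 24 h 3 of 6 were higher and 1 lower in the libraries labelled KO#2 than in wt cells (median log2 fold change 0.37, beside 0.20 over all tested genes, of which 21.3% were higher and 16% lower). Hnf4a, a nuclear receptor of liver and visceral endoderm, was higher by 2.51 (SE 0.53, adjusted p = 0.00148) and Apob, a lipoprotein component, by 2.44 (SE 0.58, adjusted p = 0.00327), beside Lrp2, while Afp was lower (-1.42, SE 0.51, adjusted p = 0.0377), a difference to be read beside the shift of 1.04 under library sizes alone. In KO#1 1 of 6 was higher at 24 h, beside 6.25%, Hnf4a by 2.97 (SE 0.54, adjusted p = 0.00124). Over 24 h Hnf4a fell in these libraries labelled KO#2 by a log2 fold change of -1.24 (SE 0.44, adjusted p = 0.0464), opposite to Gata6. Of 10 genes of parietal endoderm and basement membrane (Lama1, Lamb1, Lamc1, Col4a1, Col4a2, Nid1, Sparc, Thbd, Plat and Fst), which fibroblasts share in part, 8 fell over 24 h in wt cells, 6 fell in KO#1, 2 fell in the libraries labelled KO#2, and 0 rose (median -1.84, -1.81 and -0.67), where 24.7%, 20.6% and 13.3% of all tested genes fell. The laminin chain Lama1 fell most, by log2 fold changes of -6.00 (SE 0.49), -5.86 (SE 0.49) and -4.02 (SE 0.44), with adjusted p = 1.88e-07, 4.15e-07 and 6.12e-06. At 24 h 6 of 10 were higher in the libraries labelled KO#2 than in wt cells, beside 21.3%, among them the surface receptor Thbd by 3.85 (SE 0.69, adjusted p = 0.000418), Col4a2 by 2.93 (SE 0.49, adjusted p = 0.00023) and Lama1 by 2.76 (SE 0.44, adjusted p = 0.000156). In KO#1 2 of 10 were higher, Col4a2 by 2.57 (SE 0.49, adjusted p = 0.00195) and Col4a1 by 2.45 (SE 0.44, adjusted p = 0.00114), and 1 was lower, Lamb1 (-1.05, SE 0.26, adjusted p = 0.0139), beside 6.25% and 3.61%.

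**Figure D3:**
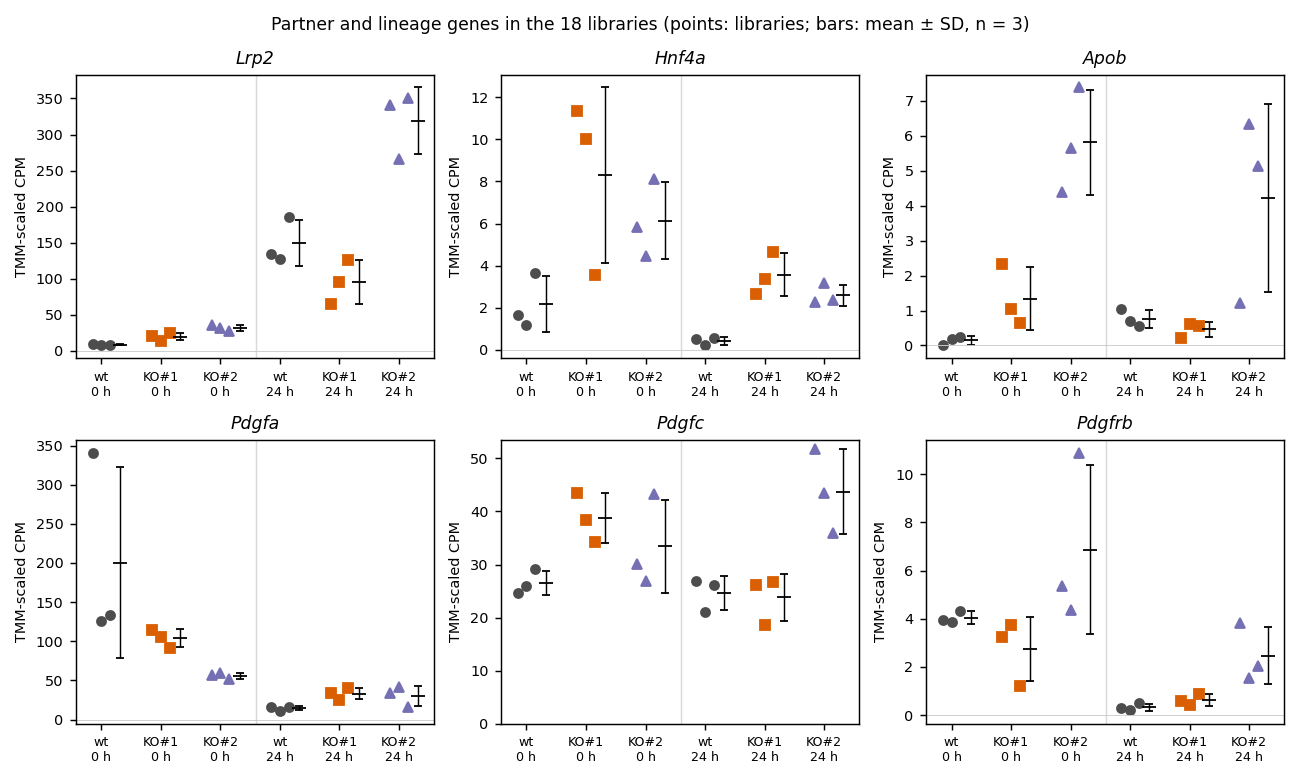
Level of Lrp2, Hnf4a, Apob, Pdgfa, Pdgfc and Pdgfrb in the 18 libraries, as TMM-scaled CPM on linear axes that differ between panels; points are libraries, symbols as for the members, and bars are the mean ± SD of 3 libraries. Lrp2 is higher at 24 h than at 0 h in every line, whereas Pdgfa and Pdgfrb are lower at 24 h in every line.

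Counted by comparison, the members stood beside the whole table as follows. Over 24 h in wt cells 0 of 8 rose and 3 fell (Gata4, Sox7, Dab2), where 26% of all tested genes rose and 24.7% fell. In KO#1 1 rose (Cubn) and 2 fell (Gata4, Dab2), beside 20.1% and 20.6%. In the libraries labelled KO#2 5 rose (Gata6, Sox17, Sox7, Pdgfra, Cubn) and 1 fell (Dab2), beside 12.7% and 13.3%. Of these, Sox17, Sox7 and Cubn passed the filter through libraries labelled KO#2 at 24 h, Sox7 together with wt libraries at 0 h. This count, and the counts and median for these libraries at 24 h below, are thus a description. Against wt cells at 0 h, 1 was higher in KO#1 (Dab2) and 0 lower, beside 3.99% and 2.68%, and 3 were higher (Gata6, Pdgfra, Dab2) and 1 lower (Sox7) in the libraries labelled KO#2, beside 21.5% and 16.6%. At 24 h 3 were higher in KO#1 (Gata6, Pdgfra, Amn) and 0 lower, beside 6.25% and 3.61%, but fits that left out 1 library called only 1 to 2. In the libraries labelled KO#2 7 were higher and 0 lower at 24 h, all tested members but Amn, beside 21.3% and 16%, and fits that left out 1 library called 5 to 6. The median log2 fold change of the 8 was 2.11 there and 0.20 over all tested genes, and in KO#1 it was 1.07 and -0.02. Between the clones, 0 were called at 0 h, beside 15.1% higher and 11.3% lower in the libraries labelled KO#2. Gata4, Pdgfra and Cubn had an unadjusted p under 0.05 in edgeR there, as had 6619 of the 16619 tested genes, a similar share. DESeq2 also called 0 there, and the fit without a filter, library sizes alone and the replicate block each called 1. At 24 h 4 were higher there (Gata6, Sox7, Pdgfra, Cubn) and 0 lower, beside 19.3% and 16.1%. The split of all called genes depends on scaling: at 24 h 57.1% of the genes called between the libraries labelled KO#2 and wt cells were higher under TMM and 94.8% with library sizes alone, which moved the median gene by 1.04. These comparisons share groups and are not independent of each other. In the libraries labelled KO#2, Pdgfra, Gata6 and Dab2 kept their calls against wt cells at 24 h in all 6 fits that left out 1 library, as did Cubn, which was tested only because it is high in these libraries.

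The 24 h response itself, tested as an interaction, was called for 0 of 8 members in KO#1 against wt cells, where 0.253% of tested genes had a higher and 0.138% a lower response. It was called for 0 of 8 in the libraries labelled KO#2, beside 0.951% and 0.517%. The unadjusted p was under 0.05 for Amn in KO#1 (0.0124), as for 1679 of the 16619 tested genes. It was also under 0.05 for Gata4, Sox17, Sox7, Pdgfra and Cubn in the libraries labelled KO#2, as for 3920 of the 16619. The lowest adjusted p values there were 0.0552 for Pdgfra (3.23, SE 0.82), 0.0584 for Sox7 (4.12, SE 1.07) and 0.0742 for Sox17 (3.29, SE 0.93). In DESeq2 2 members passed in the libraries labelled KO#2 and 0 in KO#1, and in the fit without a filter 5 members passed in the libraries labelled KO#2, Foxa2 among them. With library sizes alone 4 passed, and with the replicate block 2. The calls on the response thus depend on the tool, the filter, the scaling and the block.

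Genes of other cell types were read beside these results. The summed level of 8 fibroblast genes (Acta2, Thy1, Lox, Dcn, Postn and the collagens Col1a1, Col1a2 and Col3a1) was 110 to 390 CPM in wt cells, 183 to 514 CPM in KO#1 and 331 to 898 CPM in the libraries labelled KO#2 at 0 h, with feeders. At 24 h it was 19.0 to 34.6, 38.7 to 51.8 and 71.0 to 219 CPM, and 6 of 8 of these genes were higher in the libraries labelled KO#2 than in wt cells, beside 21.3% of all tested genes. Within those libraries the sum was lower at 24 h than at 0 h in all 3 while Pdgfra, Gata6, Sox17, Sox7 and Cubn were higher in all 3. The wt libraries at 0 h, with sums of 110 to 390 CPM, held Pdgfra at 0.328 to 0.917 CPM, below the 5.92 to 12.9 CPM found with sums of 71.0 to 219 CPM. Among the libraries labelled KO#2 at 24 h the one with the highest sum (219 CPM) also had the most Pdgfra and Gata6, and in KO#1 at 24 h replicate 1 had the highest sum (51.8 CPM), Pdgfra and Gata6. Dab2 and Gata4 fell in wt cells and KO#1 together with the fibroblast list, of which 6 of 8 fell and 1 (Dcn) rose in each of these lines, where 24.7% and 20.6% of all tested genes fell. In the libraries labelled KO#2 3 of 8 of the list fell and 0 rose, where 13.3% of all tested genes fell. Dab2 fell there too, while the change of Gata4 was -0.16 (adjusted p = 0.836, edgeR). The part of fibroblasts in the differences of Pdgfra, Gata6, Dab2 and Gata4 was not tested.

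**Figure D4:**
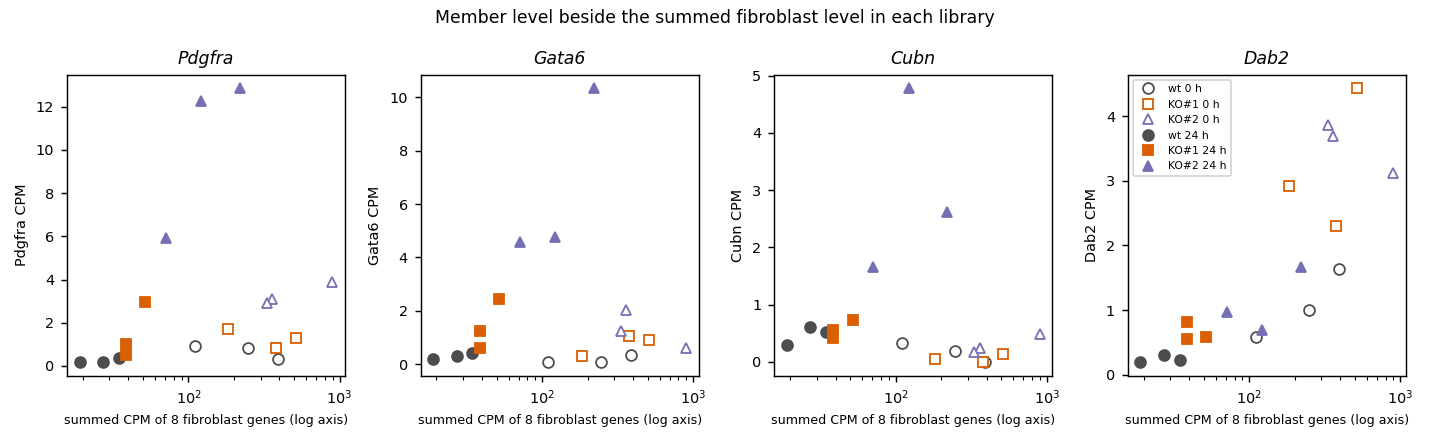
CPM of Pdgfra, Gata6, Cubn and Dab2 (linear axes) against the summed CPM of 8 fibroblast genes (log axis) in each of the 18 libraries; open symbols are 0 h and filled symbols 24 h, with circles for wt cells, squares for KO#1 and triangles for the libraries labelled KO#2. For Pdgfra, Gata6 and Cubn the libraries labelled KO#2 at 24 h stand above libraries of 0 h with the same or a higher sum, whereas the highest Dab2 levels lie among the libraries of 0 h with sums over 110 CPM.

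Of 8 genes of streak and definitive endoderm 4 were tested, and 3 of these fell in wt cells over 24 h, beside 24.7%. Cer1, T, Mixl1 and Lhx1 held at most 2, 9, 4 and 3 counts in any library, and Gsc fell in all 3 lines. Eomes, a T-box factor of streak, trophoblast and visceral endoderm, fell in wt cells from 11.4 ± 4.34 to 1.75 ± 0.112 CPM and rose in the libraries labelled KO#2 from 3.04 ± 0.887 to 9.62 ± 1.99 CPM. Its response differed from wt cells in both clones, by 4.33 for the libraries labelled KO#2 (SE 0.49, adjusted p = 0.000437) and by 3.00 for KO#1 (SE 0.49, adjusted p = 0.0139). Of 8 trophoblast genes Tpbpa, Prl3d1 and Elf5 held at most 1, 3 and 6 counts. At 24 h 2 of the 5 tested were higher and 1 lower in the libraries labelled KO#2 than in wt cells, beside 21.3% and 16% of all tested genes. Hand1, which entered testing only through libraries labelled KO#2, held 0 counts in every wt library and 3 to 22 per library there. Plet1 was higher in both clones at both times, at 24 h by 1.59 in KO#1 (SE 0.29, adjusted p = 0.00124) and by 0.96 for the libraries labelled KO#2 (SE 0.28, adjusted p = 0.0133). Of 6 endothelial genes, read because Sox7 and Sox17 also act in vessels, Cdh5 and Emcn held at most 5 and 1 counts, whereas others were expressed. Esam, a junction protein, rose from a mean of 0.0584 to 6.27 CPM in wt cells (adjusted p = 8.23e-07), from 0.109 to 5.59 CPM in KO#1 (adjusted p = 2.13e-06) and from 0.204 to 3.95 CPM where the label was KO#2 (adjusted p = 4.75e-06). Between the libraries labelled KO#2 and wt cells, 1 of 4 tested endothelial genes was higher and 1 lower at 0 h, beside 21.5% and 16.6%. At 24 h 0 were higher and 1 lower, beside 21.3% and 16%. Egfl7, a secreted protein, was lower there at 24 h (-1.64, SE 0.27, adjusted p = 0.000189, beside the same shift of 1.04) and at 0 h (-1.45, SE 0.27, adjusted p = 0.000845, beside a shift of 0.45). The receptor Tek was higher at 0 h (0.94, SE 0.36, adjusted p = 0.0483), with overlap between the replicates. The part of these cell types in the results on the members was not tested. Of the paralogs Gata1, Gata2, Gata3, Gata5, Sox18, Foxa1, Foxa3 and Dab1, 5 of 8 were tested and 0 were called between either clone and wt cells at either time, where the shares of all tested genes ran from 2.68% lower (KO#1, 0 h) to 21.5% higher (KO#2, 0 h).

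The genes most like each member across the 18 libraries, by Pearson r of log2 CPM among tested genes with an average of at least 1 log2 CPM, are named as a description only, since all points share the 6 groups. For Pdgfra they were Mgat4a (0.91), Gm21769 (0.91) and Homer1 (0.90), and for Gata6 Gk5 (0.89), Fbxw7 (0.86) and Rhobtb3 (0.85). Cubn was closest to Spin1 (0.96), Crocc2 (0.95) and Spop (0.94). The neighbours of Dab2 were Myo5c, Ddr2 and Boc (0.95 each), and Ddr2 is a collagen receptor of mesenchymal cells. For Gata4 the closest was Zbtb14 (0.86), for Sox7 E2f3 (0.82), for Amn Pfkp (0.82) and for Sox17 Ppp2r5a (0.77).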

How the data were processed

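Sample titles placed the 18 RNA-seq libraries in 6 groups. By the published methods the authors prepared strand-specific libraries of total RNA, trimmed reads, removed ribosomal sequences, aligned to GRCm38 with STAR and quantified with Salmon and StringTie. The annotation release and the use of strand in counting are not given in the sources used here. The authors deposited counts, whole numbers of reads for each of 45706 genes, without normalization. Positions and exonic lengths came from GENCODE M21, which holds 45143 of these identifiers.

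The members and gene lists were chosen with earlier results of these data known. Genes were filtered with filterByExpr by group (minimum count 10), scaled by TMM and fitted in 1 quasi-likelihood model of 6 groups with edgeR 4.0.16 in R 4.3.3. P-values were adjusted over all 16619 tested genes by Benjamini-Hochberg, and genes under 0.05 were called. SE is the absolute log2 fold change over the root of the F statistic. P-values measure the spread between the 3 replicates of 1 clone. Counting intervals are exact 95% intervals of the ratio of summed counts. Named genes were all members, Hmga2, up to 3 called genes with the largest change per list and comparison, the defining fibroblast and pluripotency genes and the 3 nearest genes of each member. Genes named for counts near 0 and the promoter words were chosen after values were seen. A gene of the visceral endoderm list is not reported here and was left out of its counts.

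No pair of the 153 library pairs held identical counts. Steps were tested on simulated counts. Alternatives were DESeq2 1.42.0, its size factors in edgeR, library sizes alone, no filter, a floor of 10 counts in each library, fits of only those groups being compared, a block for replicate number, and leaving out each library. Figures used Python 3.11.15 with matplotlib 3.10.9.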

Additional observations from a re-analysis of the deposited data

Results flagged for a closer look

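Sox7 was singled out because all 3 wt libraries were lower at 24 h than at 0 h and all 3 libraries labelled KO#2 were higher. The difference between the responses was 4.12 on the log2 scale (SE 1.07), and its interaction test in edgeR gave an adjusted p of 0.0584, which misses the threshold. That test is no separate support, since it reads the same pattern for which Sox7 was singled out. The gene also passed the filter only through 2 wt libraries at 0 h and 2 libraries labelled KO#2 at 24 h, the groups whose high values make this difference. The values rest on 1 to 8 counts per wt library and 2 to 23 counts per library labelled KO#2, and what lies behind the difference was not tested.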

How the results depend on the processing

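The counts of members called kept within 1.5 times of those reported under DESeq2 size factors in all 11 comparisons. With library sizes alone, which moved the median of all genes by as much as 1.07 on the log2 scale (libraries labelled KO#2 against KO#1 at 24 h) and by 1.04 for these libraries against wt cells at 24 h, 5 members fell in wt cells, and 4 had a higher response in the libraries labelled KO#2, 1 was higher in them than in KO#1 at 0 h and 7 at 24 h. Under the same scaling the changes of Pdgfra (-0.74) and Sox7 (-0.56, from counts at or under the floor) in KO#1 over 24 h and the difference of Sox17 between the clones at 0 h (0.25) turned sign. Over all genes it moved the share of called genes that were higher from 51.3% to 21.4% in wt cells over 24 h, from 49.4% to 11.4% in KO#1 over 24 h, from 59.8% to 71.3% in KO#1 against wt cells at 0 h, from 64.6% to 50% in its response, and from 56.4%, 57.3%, 54.5% and 64.8% to 90.3%, 90.6%, 95.5% and 94.4% in the libraries labelled KO#2 (against wt cells at 0 h, against KO#1 at 0 h and 24 h, and response). Over all genes the responses called were 42 higher and 23 lower in KO#1 and 158 and 86 in the libraries labelled KO#2, against 192 and 84, and 926 and 483, in DESeq2, 198 and 109, and 921 and 796, without a filter, 2 and 2, and 756 and 45, with library sizes alone, and 239 and 208 in the libraries labelled KO#2 with the replicate block. DESeq2 called 2 responses in the libraries labelled KO#2. Without a filter, where Foxa2 enters, 5 responses were called there and 1 member was higher than in KO#1 at 0 h. Fits of only the groups compared, with fewer samples, called 1 member in wt cells over 24 h (Gata4, the only member that passed the filter there), 0 in KO#1 against wt cells at 0 h (Dab2 lost its call), 1 at 24 h (Amn, while Gata6 lost its call and Pdgfra did not pass the filter), and 1 response in the libraries labelled KO#2 (Pdgfra). No member had 10 counts in every library, so that filter gave no value. The cause of these shifts was not tested.

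Replicate numbers were not shown to pair libraries: deviations of same-numbered libraries correlated by 0.0531 on average over 45 pairs (-0.256 to 0.587), those of other numbers by -0.0266 over 90 pairs, and, as a hint from the data and not the design, 11 of 18 libraries correlated best with their own number. With the replicate number as a block, 2 responses were called in the libraries labelled KO#2 and 1 member was higher in them than in KO#1 at 0 h, and the other 9 counts stayed within 1.5 times.

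Leaving out 1 library gave 2 to 4 calls in wt cells over 24 h, 2 to 3 in KO#1 and 4 to 6 in the libraries labelled KO#2. Against wt cells it gave 0 to 1 (KO#1, 0 h), 1 to 2 (KO#1, 24 h), 3 to 4 (KO#2, 0 h) and 5 to 6 (KO#2, 24 h). Between the clones it gave 0 at 0 h and 4 to 5 at 24 h, and for the responses 0 in KO#1 and 0 to 1 in the libraries labelled KO#2. Some uncalled values turned sign in these fits. In KO#1 against wt cells at 0 h, Amn ranged from -0.88 to 0.61 and Gata4 from -0.088 to 0.43. In KO#1 over 24 h Pdgfra ranged from -0.88 to 0.57 and Sox7 from -0.89 to 0.75. Gata4 in the libraries labelled KO#2 over 24 h ranged from -0.48 to 0.42, and Cubn there against wt cells at 0 h from -0.058 to 1.07. Between the clones at 0 h Dab2 ranged from -0.061 to 0.42 and Sox17 from -0.76 to 0.29. The response of Dab2 in the libraries labelled KO#2 ranged from -0.19 to 0.57 and that of Gata6 in KO#1 from -0.89 to 0.14.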
